A study of Homo sapiens with 14 samples.

Results

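Heavy polysome mRNA after DAP5 silencing is described here for 14350 genes, those with at least 10 counts in 2 or more of 4 RNA sequencing libraries, out of 58434 gene symbols counted. MDA-MB-231, a human triple-negative breast cancer cell line, carried a stably integrated, doxycycline-inducible short hairpin RNA, either against DAP5 (cells named MB-231-shDAP5) or a control hairpin with no target (MB-231-shNSi). All cultures, controls included, received doxycycline at 1 µg/ml for 6 days and were lysed for sucrose gradient polysome profiling, after cycloheximide treatment per the study's methods. Heavy polysome libraries of 2 shDAP5 and 2 shNSi cultures were compared, and the total mRNA and light polysome libraries of the same cultures are given beside them. The shDAP5 total libraries are titled as total polysome and the shNSi ones as total. Both were taken as total mRNA, and whether they hold the same material was not tested, which bears on every value set against total mRNA. The series holds 14 libraries. The lines were stable transductants of a tetracycline-inducible lentiviral vector, selected with puromycin and sorted for a red fluorescent reporter, with 1 hairpin line per arm among these libraries. The hairpin line and the silencing of DAP5 therefore cannot be told apart. The shNSi cultures also had a moderate polysome pool for which no shDAP5 counterpart is among the samples, and the shDAP5 light libraries carry the code given to that moderate pool. The bounds of the heavy and light pools may therefore differ between arms. That difference was not tested, and it bears on every heavy and every light polysome value.

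Polysomes are mRNAs carrying several ribosomes. A sucrose gradient sorts them by ribosome number, so an mRNA in the heavy fraction carries many ribosomes at once, and long coding sequences have room for more of them than short ones. DAP5, encoded by EIF4G2, is a relative of the scaffold protein eIF4GI that lacks the part binding the cap-binding protein eIF4E. It supports initiation on subsets of mRNAs and is essential in early development.

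The heavy polysome libraries held between 27482061 and 30050488 counts. Replicate libraries had a Pearson's r of 0.977 in shNSi and 0.980 in shDAP5 cells on log2 CPM (counts scaled to a common library total), computed over genes, which do not count as replicates. For 1 gene, 2 cultures in each group allow a two-sided exact permutation p of 0.333 at the least. The study describes its replicates as sets performed independently, and the labels do not say which steps were separate. P-values of edgeR's test measure a spread between these libraries that is largely shared across genes (median prior degrees of freedom 547). The spread of a gene's own libraries therefore weighs little in its p-value for most genes. EIF4G2 itself was at 1210.1 and 1092 CPM in the shNSi heavy libraries and at 635 and 639 CPM in the shDAP5 libraries (CPM scaled by TMM, a correction for library composition). Both shDAP5 values lay below both shNSi values (exact permutation test, p = 0.333), and edgeR's quasi-likelihood test gave a log2 fold change of −0.85 with a standard error of 0.38 and an adjusted p of 0.0698 in heavy polysomes, and −1.11 in total mRNA (adjusted p = 0.0178). The markers fixed for MDA-MB-231 were present, with VIM at 4537 CPM or more, while ESR1, PGR and CDH1 stayed at 0.463 CPM or less. ERBB2 at 45.5 to 71.4 CPM and GATA3 at 9.55 to 15.2 CPM were above the level of those 3 genes. Of the markers of other cell types, PTPRC, CD3E, ALB and DCN were at 0.109 CPM or less and COL1A1 was between 14.7 and 59.4 CPM. The summed level of the MDA-MB-231 markers VIM, CD44, FN1 and EGFR was 11098 and 11996 CPM in the shNSi libraries and 5239 and 4978 CPM in the shDAP5 libraries, without TMM.

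In heavy polysomes the classes with most of their members called lower included integrin subunits, collagen and laminin chains, cadherins, ER chaperones, heat shock proteins, RNA helicases and nucleoporins. Those with most called higher included cytosolic and mitochondrial ribosomal proteins, respiratory chain subunits, Sm and LSm proteins and snoRNA host genes. In all, 4422 genes passed an adjusted p of 0.05, which is 30.8% of those tested, with 2397 lower (16.7%) and 2025 higher (14.1%) in shDAP5 cells. The middle 90% of log2 fold changes ran from −1.53 to 1.40 around a median of 0.09, and the smallest change called was 0.80. In both shDAP5 libraries 4424 genes (30.8%) were below both shNSi libraries and 5196 (36.2%) were above both. The number of calls depended on shDAP5 replicate 2, since 328 genes were called without it, 3072 without shDAP5 replicate 1, 3666 without shNSi replicate 1 and 2191 without shNSi replicate 2. Of the 109 genes that passed and are given here with a fold change, 80 were not called without shDAP5 replicate 2, 25 without shNSi replicate 2, 15 without shDAP5 replicate 1 and 11 without shNSi replicate 1. A fit with 1 library left out has 1 library in that arm, which is assumed to vary like the other arm. Class medians without shDAP5 replicate 2 were −0.97 for RNA helicases (−1.0 with all 4 libraries), −1.68 for ER chaperones (−1.73), −1.18 for heat shock proteins (−1.30), −1.63 for integrin subunits (−1.92) and 0.94 for cytosolic ribosomal proteins (1.30). Leaving out each library in turn moved some of them further. The medians then ran from −1.38 to −0.86 for RNA helicases and from −2.12 to −1.02 for ER chaperones. The ranges were −1.68 to −1.18 for heat shock proteins, −2.45 to −1.27 for integrin subunits and 0.94 to 1.56 for cytosolic ribosomal proteins. With a control that summed shNSi heavy and moderate counts, 431 genes were called, 336 of them lower. The summed libraries had similar totals (28092151 heavy and 28532504 moderate counts in replicate 1). The sum thus weights the pools about alike, whatever amount of RNA each held, and is not a measured wider pool. Without TMM scaling the median of all genes was 0.34, a shift of over 0.1, and 31.5% of 3636 calls were lower, against 54.2% with TMM.

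The genes that fell most included those of secreted matrix proteins and membrane receptors. MMP1, an interstitial collagenase, was at 220.5 and 656 CPM in the shNSi libraries of heavy polysomes and at 11.4 and 18.6 CPM in the shDAP5 libraries, a change of −4.87 on the log2 scale (standard error 0.43, adjusted p = 1.05e-18). COL4A1, a basement membrane collagen chain, was at 82.2 and 172 CPM in shNSi and at 11 and 12.2 CPM in shDAP5 cells (log2 fold change −3.45). Its partner chain COL4A2 was at 174 and 537 CPM against 33.2 and 48.9 CPM (log2 fold change −3.12). In these 3 genes shNSi replicate 2 was the higher control library and both shDAP5 libraries lay below shNSi replicate 1.

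FN1, which encodes the adhesive matrix protein fibronectin, was at 81.6 and 379 CPM against 38.5 and 28.3 CPM (log2 fold change −2.79, adjusted p = 0.00284). The shNSi libraries of FN1 stood far apart, and without shDAP5 replicate 2 its change was −2.58 with an adjusted p of 0.199, and without shNSi replicate 2 it was −1.29. The secreted matrix protein gene ECM1 was at 64.3 and 103 CPM against 8.24 and 14.9 CPM (log2 fold change −2.85). IGF2R, the mannose 6-phosphate receptor that carries enzymes to lysosomes and clears IGF2, was at 118 and 407 CPM against 38.5 and 26.9 CPM (log2 fold change −3.01), with an adjusted p of 0.0617 without shDAP5 replicate 2 and a change of −1.85 without shNSi replicate 2. Also among the 10 lowest were IGFN1 (−3.73, with an adjusted p of 0.20 without shDAP5 replicate 2 and a change of −2.25 without shNSi replicate 2), ERAP1, an ER aminopeptidase that trims peptides for MHC class I (−2.74), and TM9SF2, a multispanning endosomal membrane protein (−2.73). In all 10 genes both shDAP5 libraries were below both shNSi libraries, a separation the rule required.

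**Figure D1:**
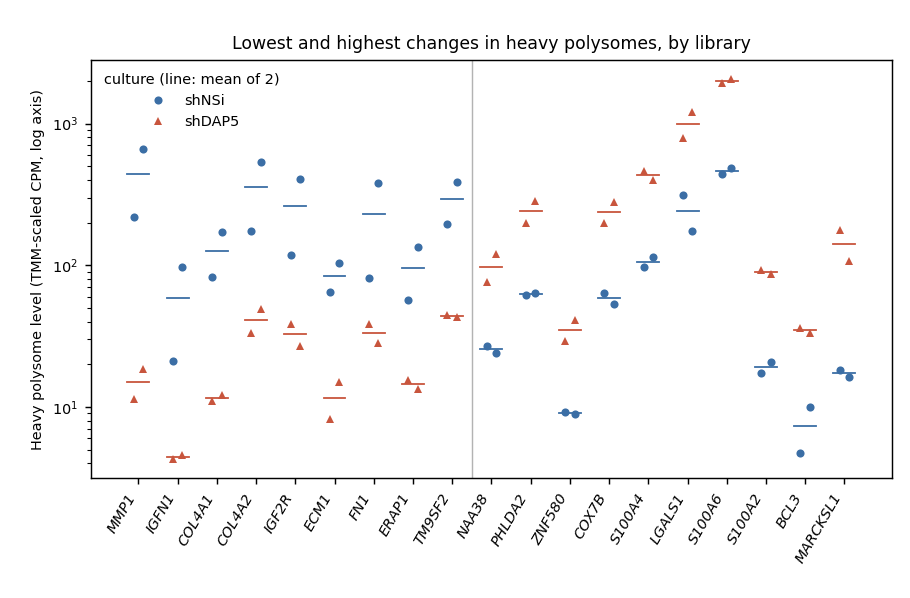
Heavy polysome level in TMM-scaled CPM on a log axis for 9 of the 10 lowest and the 10 highest changes, with 1 point per library (circles shNSi, triangles shDAP5) and a line at the mean of each pair. The groups do not overlap in any of these genes, which the rule for choosing them required, and the shNSi libraries stand furthest apart in FN1 and IGFN1.

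The genes that rose most had coding lengths from 243 to 1365 nt. MARCKSL1, an actin-binding substrate of protein kinase C, was at 18.1 and 16.3 CPM in the shNSi libraries of heavy polysomes and at 177 and 107 CPM in the shDAP5 libraries, a change of 3.05 on the log2 scale (standard error 0.35, adjusted p = 2.88e-13). S100A6, a small calcium-binding protein, was at 443 and 486 CPM against 1919 and 2068 CPM (log2 fold change 2.10, adjusted p = 8.73e-06). S100A4, linked to motility and metastasis, was at 96.5 and 114 CPM against 462 and 400.4 CPM (log2 fold change 2.04). In each of these genes the lower shDAP5 library was above both controls, which the rule for choosing them required. S100A2 followed with a log2 fold change of 2.23, and LGALS1, the beta-galactoside-binding lectin galectin-1, was at 311 and 175 CPM against 786 and 1205 CPM (log2 fold change 2.04, and adjusted p = 0.0512 without shDAP5 replicate 2). BCL3, a nuclear member of the IκB family, was at 4.72 and 10.1 CPM in shNSi and at 36.1 and 33.4 CPM in shDAP5 cells (log2 fold change 2.23). It had the longest coding sequence of the 10 highest. The others were COX7B of cytochrome c oxidase (2.03), ZNF580 (1.96), PHLDA2 (1.95) and NAA38, a subunit of an N-terminal acetyltransferase (1.94).

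Genes were grouped into 45 functional classes by symbol, of which 44 had a tested member. The class medians ran from −1.92 for integrin subunits to 1.40 for replication-dependent histones, beside a median of 0.09 over all genes tested. In total mRNA the medians of the same classes lay between −0.64 and 0.34, and in light polysomes between −0.65 and 0.59.

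**Figure D2:**
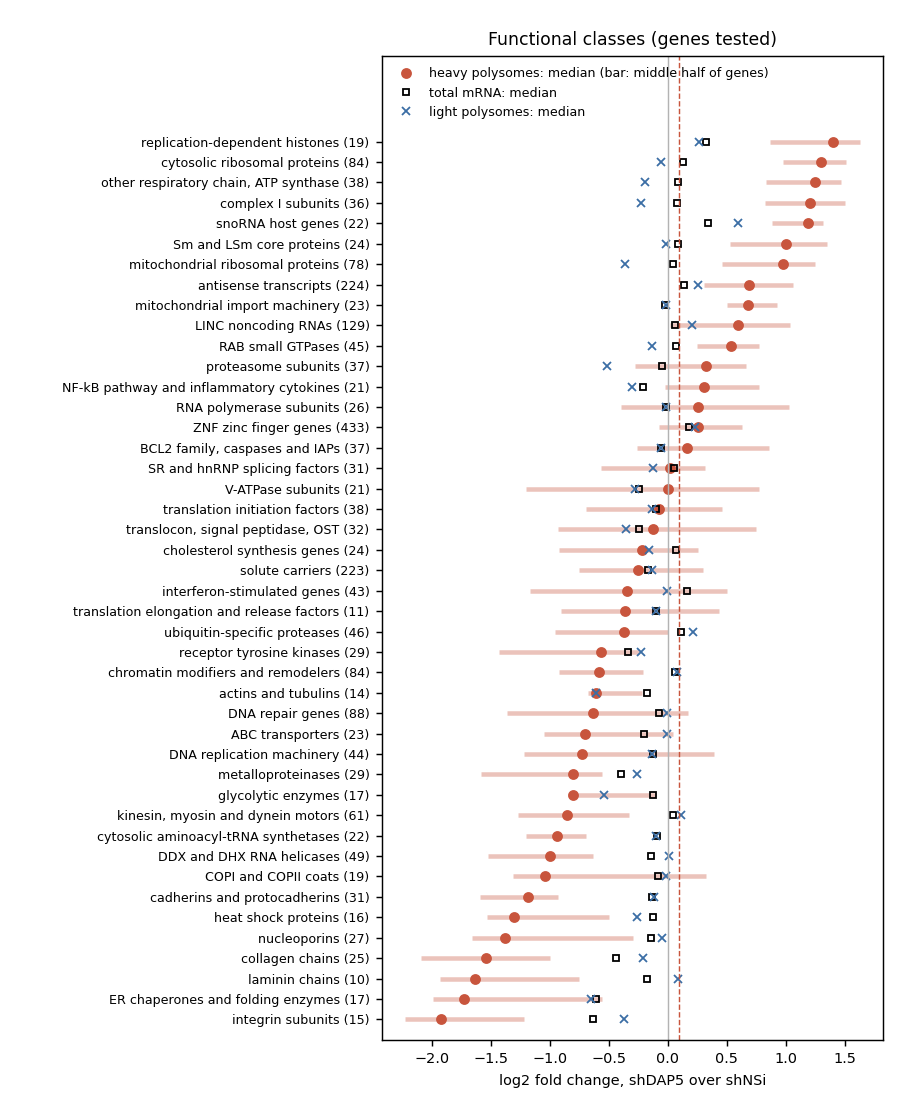
Median log2 fold change of each class, shDAP5 over shNSi, in heavy polysomes (filled circles, with a bar over the middle part of the members, from the 25th to the 75th percentile), total mRNA (squares) and light polysomes (crosses), with the number of genes tested in brackets and a dashed line at the heavy polysome median of all genes. The heavy polysome medians run from −1.92 for integrin subunits to 1.40 for replication-dependent histones, while those of total mRNA stay between −0.64 and 0.34.

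Matrix and adhesion classes had many members called lower. Of 15 integrin subunits tested, the transmembrane receptors that bind matrix proteins, 10 fell and 1 rose (median −1.92). ITGB1, the beta 1 chain shared by many of these receptors, was at 852 and 1331 CPM in the shNSi libraries and at 222 and 159 CPM in the shDAP5 libraries (log2 fold change −2.52, standard error 0.39, adjusted p = 9.02e-08). ITGA3 changed by −1.92 and ITGA6 by −2.27, both laminin-binding alpha chains, while ITGAE rose by 1.48. Of 25 collagen chains 15 fell and 1 rose (median −1.54). COL6A1 had 152 and 750.0 CPM in the shNSi libraries against 125 and 131 CPM, where both shDAP5 values lay just below shNSi replicate 1 (log2 fold change −1.82, and −0.25 with an adjusted p of 0.693 without shNSi replicate 2). COL9A2 rose by 0.99 and was called in none of the fits with 1 library left out. Of 10 laminin chains 7 fell and 1 rose (median −1.63), with LAMB3 at −2.54 and LAMC1 at −2.0. The exception was LAMA5, at 37.5 and 108 CPM in shNSi and at 225 and 109 CPM in shDAP5 cells (log2 fold change 1.19), which was also higher in total mRNA (log2 fold change 1.5, adjusted p = 0.0287). In heavy polysomes its change was 0.49 (adjusted p = 0.426) without shDAP5 replicate 1, 0.52 (adjusted p = 0.340) without shNSi replicate 1 and 2.15 without shNSi replicate 2, and it was not called without shDAP5 replicate 2. Of 29 metalloproteinases, enzymes that cut matrix and surface proteins, 13 fell and none rose (median −0.81), among them MMP14 at −1.96 and ADAM9 at −1.15. Of 31 cadherins and protocadherins, calcium-dependent adhesion proteins, 19 fell and none rose (median −1.19), with FAT1 at −1.95 and CDH4 at −1.0.

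These counts depended on single libraries. Without shNSi replicate 2 the change of LAMB3 was −1.33, that of LAMC1 −1.29, that of MMP14 −1.06 and that of FAT1 −0.98, the last with an adjusted p of 0.0563. Without shDAP5 replicate 2, 5 integrin subunits, 4 collagen chains, 1 laminin chain, 4 metalloproteinases and 0 cadherins were called lower, and without shNSi replicate 2 the numbers were 8, 7, 4, 8 and 4. Against the sum of both shNSi pools, 7 integrin subunits, 8 collagen chains, 4 laminin chains, 6 metalloproteinases and 3 cadherins were lower, of 336 genes lower over the whole table.

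Chaperones and vesicle coat subunits were also called lower. Of 17 ER chaperones and folding enzymes 11 fell and 1, SDF2L1, rose (median −1.73). CANX, the membrane-bound lectin chaperone calnexin, was at 1325 and 2299 CPM in shNSi and at 398 and 350.1 CPM in shDAP5 cells (log2 fold change −2.28, standard error 0.40, adjusted p = 1.57e-06). Its soluble relative CALR (calreticulin) changed by −2.04, the disulfide isomerase P4HB by −1.74 and PDIA3 by −2.54. This class was also lower in the other fractions, with medians of −0.61 in total mRNA and −0.65 in light polysomes. Of 16 heat shock proteins 10 fell and 2 rose (median −1.30). HSPA8, the constitutive HSP70 chaperone, was at 6506 and 8506 CPM against 2654 and 2624 CPM (log2 fold change −1.51). HSP90AA1 and HSP90AB1, the cytosolic HSP90 chaperones, changed by −1.52 and −1.76, and HSPH1 by −2.0, while HSPE1, the small lid of the mitochondrial chaperonin, rose by 1.28. Of 19 subunits of the COPI and COPII vesicle coats 11 fell and 2 rose (median −1.04), with COPB1 at −1.74, COPA at −1.75 and the small subunit COPZ1 at 1.02. With shDAP5 replicate 2 left out the lower calls were 4 for ER chaperones, 0 for heat shock proteins and 0 for the coats. With the summed control they were 6, 0 and 0. SDF2L1 and COPZ1 were called in none of the fits with 1 library left out.

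RNA helicases, nucleoporins, chromatin modifiers and genes of DNA repair and replication had lower calls and few or no higher ones. Of 49 DDX and DHX RNA helicases, which unwind RNA in ribosome assembly, splicing and translation, 29 fell and none rose (median −1.0). DHX9 was at 387 and 925 CPM in shNSi and at 155 and 152 CPM in shDAP5 cells (log2 fold change −2.09, adjusted p = 4.45e-06), DDX21 changed by −1.83 and DDX5 by −1.17. Of 27 nucleoporins 16 fell and none rose (median −1.38), with NUP188 at −2.06 and NUP98 at −1.51. Of 84 chromatin modifiers and remodelers 32 fell and none rose (median −0.59), with CHD4, the ATPase of the NuRD complex, lowest at −2.18. Of 88 DNA repair genes 40 fell and 3 rose (median −0.63). XRCC5 (Ku80) changed by −1.77, PARP1 by −1.74 and PRKDC, the DNA-dependent protein kinase, by −2.14, while the glycosylase MPG rose by 1.91. Of 44 DNA replication genes 21 fell and 3 rose (median −0.73), with the helicase subunit MCM7 at −1.55, RRM1 of ribonucleotide reductase at −1.85 and POLA1 at −2.03, and the smallest subunit of replication protein A, RPA3, at 1.54. Without shDAP5 replicate 2 the lower calls in these 5 classes were 0, 1, 0, 0 and 1, and without shNSi replicate 2 they were 19, 14, 7, 20 and 13. The change without shNSi replicate 2 was −1.33 for DHX9 and −1.16 for CHD4. Of the 3 replication genes that rose, 0 were called without shDAP5 replicate 2 and 1 without shNSi replicate 2.

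Of 61 kinesin, myosin and dynein motors 31 fell and 1 rose (median −0.85), with nonmuscle myosin heavy chain MYH9 at 856 and 1756 CPM against 285 and 185 CPM (log2 fold change −2.48) and the kinesin KIF5B at −1.05. Of 14 actins and tubulins 2 (14.3%) fell and none rose (median −0.60), a share close to the 16.7% of all genes tested that fell. ACTB, beta actin, was at 10433 and 5910.0 CPM in shNSi and at 7209.7 and 10552 CPM in shDAP5 cells, so that the groups overlapped. Of 22 cytosolic aminoacyl-tRNA synthetases, which charge tRNAs, 12 fell and none rose (median −0.94), with the bifunctional EPRS lowest at −1.91, TARS at −1.18 and IARS at −1.02. Of 46 ubiquitin-specific proteases 15 fell and 1 rose (median −0.37), with USP9X at −1.65 and USP5 at −1.51. Once shDAP5 replicate 2 was left out the lower calls were 2 motors, 0 actins and tubulins, 0 synthetases and 0 proteases. Without shNSi replicate 2 they were 10, 1, 5 and 6, and without shDAP5 replicate 1 there were 0 actins and tubulins and 7 synthetases. The motor and the protease that rose were not called with any 1 library left out.

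Cytosolic ribosomal protein mRNAs were the class most often called higher. Of 84 tested, 70 (83.3%) rose and none fell (median 1.30), beside 14.1% of all genes tested that rose. In 81 both shDAP5 libraries were above both shNSi libraries, as they were in 36.2% of all genes tested. Together they took 3.76% and 3.59% of all counts in shNSi heavy polysomes, against 7.26% and 10.3% in shDAP5 heavy polysomes. RPL7A was at 1448 and 1185 CPM in shNSi and at 2384 and 3919 CPM in shDAP5 cells (log2 fold change 1.26, standard error 0.39, adjusted p = 0.00816). RPL34 rose most, from 152 and 172 CPM to 405 and 694 CPM (log2 fold change 1.77). The longer RPL5 (1886 and 2709 CPM in shDAP5 against 2000.1 and 2119 CPM in shNSi cells) and RPL4 (1434 and 2057 against 2149 and 1853 CPM) overlapped between groups. The summed share was highest in shDAP5 replicate 2, and without that library 0 were called, against 62 without shDAP5 replicate 1, 54 without shNSi replicate 1 and 48 without shNSi replicate 2. With the summed control 0 were called and the class median was 0.40. Ribosomal protein genes have many processed copies in the genome, and how reads shared with them were assigned is not given in the sources used here, so single values are uncertain.

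Many ribosomal protein and elongation factor mRNAs start with a terminal oligopyrimidine tract, a C followed by a run of pyrimidines through which growth signals control their translation. The windows below show such starts, from RefSeq (GRCh38.p14), for ribosomal protein mRNAs that rose and for elongation factor mRNAs with lower values. Each runs from 15 bases before the annotated transcript start to 20 bases into the 5′ end of the first exon, in the direction of transcription, and capitals mark the pyrimidine run from position 1. RPS6 and RPS12 were chosen after their values were seen.
RPL7A: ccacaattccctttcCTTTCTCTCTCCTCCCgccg
RPS6: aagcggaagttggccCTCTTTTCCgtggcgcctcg
RPS12: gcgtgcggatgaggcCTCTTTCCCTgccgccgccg
EEF2: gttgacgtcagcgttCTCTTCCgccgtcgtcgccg
EEF1A1: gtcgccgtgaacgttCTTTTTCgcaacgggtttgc
The windows lie at chr9:133348203-133348237 on the plus strand (RPL7A), chr9:19380217-19380251 on the minus strand (RPS6), chr6:132814554-132814588 on the plus strand (RPS12), chr19:3985444-3985478 on the minus strand (EEF2) and chr6:73521013-73521047 on the minus strand (EEF1A1).

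Among the mRNAs with these starts the ribosomal protein mRNAs were higher and EEF2 was lower. RPS12 was at 191 and 219 CPM in shNSi and at 397 and 652 CPM in shDAP5 cells (log2 fold change 1.36, adjusted p = 0.00231), and RPS6 at 953 and 973 against 1458 and 2265 CPM (log2 fold change 0.95, adjusted p = 0.0458). RPS6 was called in none of the fits with 1 library left out, with a change of 0.60 without shDAP5 replicate 2. EEF2, the translocation factor of the ribosome, was at 2935 and 4891 CPM in shNSi and at 1446 and 1238 CPM in shDAP5 cells (log2 fold change −1.54, adjusted p = 0.0012). EEF1A1, which delivers aminoacyl-tRNA, was at 12659 and 12407 CPM against 6802 and 6655 CPM (log2 fold change −0.90, adjusted p = 0.0716). Coding lengths were 801 nt for RPL7A, 750 nt for RPS6 and 399 nt for RPS12, and 2577 nt for EEF2 and 1389 nt for EEF1A1. A start of C followed by at least 4 pyrimidines (C or T), on the transcribed strand and at any listed start, was found in 48 of 67 ribosomal protein genes with a RefSeq start in the table used, of which 44 rose and 0 fell, and in 7.34% of 10086 tested genes with such an entry (5.14% of 27305 genes of the whole table). Of the 19 ribosomal protein genes without it, 12 rose and 0 fell. Among all other tested genes with such a start, 78 of 217 with a coding length under 1000 nt rose and 1 fell (median 0.70), 16 of 261 with 1000 nt or more but under 2000 nt rose and 31 fell (median 0.02), and 2 of 196 with 2000 nt or more rose and 85 fell (median −0.70). Genes of the same lengths without the start had medians of 0.68, −0.06 and −0.73, with 927 of 2627, 197 of 3548 and 43 of 2853 called higher and 32, 502 and 1220 called lower.

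Nuclear-encoded mRNAs of the mitochondrial respiratory chain and ribosome were mostly called higher. Of 36 complex I subunits, of the enzyme that takes electrons from NADH, 27 rose and 2 fell (median 1.21). NDUFB11, an accessory subunit of the membrane arm, was at 47.3 and 37.8 CPM in shNSi and at 122 and 184 CPM in shDAP5 cells (log2 fold change 1.84, standard error 0.34, adjusted p = 5.84e-06). Among those that fell was the larger core protein NDUFS1, at 201 and 265 against 108 and 67.1 CPM (log2 fold change −1.42). Of 38 other subunits of the respiratory chain and ATP synthase 28 rose and 3 fell (median 1.25). COX7B, of cytochrome c oxidase, was at 63.8 and 53.1 CPM against 199 and 278 CPM (log2 fold change 2.03), and the 3 that fell were SDHA of succinate dehydrogenase (−1.53) and the catalytic ATP synthase subunits ATP5A1 (−1.14) and ATP5B (−0.96). Of 78 mitochondrial ribosomal proteins 47 rose and 1 fell (median 0.98), with MRPL52 highest at 1.69 and MRPS31 lowest at −0.89. Of 23 import machinery genes 8 rose and 1, the receptor TOMM70, fell (median 0.68). With shDAP5 replicate 2 left out the higher calls in these 4 classes were 4, 1, 0 and 0, and with the summed control there were 0 in each. Without shNSi replicate 1 the higher calls were 20, 22, 25 and 3, and without shNSi replicate 2 they were 21, 23, 29 and 5. Of the 7 subunits and factors that fell, 2 were called without shDAP5 replicate 1, 0 without shDAP5 replicate 2 and 2 without shNSi replicate 2. The mRNAs encoded by mitochondrial DNA were not analysed here.

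Sm and LSm proteins, histones and snoRNA host genes had many members called higher. Of 24 Sm and LSm core proteins, the rings of spliceosomal and decay particles, 13 rose and none fell (median 1.01), with LSM2 at 28.3 and 27.6 CPM against 71.5 and 99.6 CPM (log2 fold change 1.61) and SNRPC at 1.16. Of 19 replication-dependent histone genes tested, of 71 listed, 10 rose and none fell (median 1.40), but together they held 0.00688% of counts or less in each library, their copies are nearly identical, and DESeq2 called 1. Of 22 snoRNA host genes, whose spliced transcripts carry small nucleolar RNAs in introns, 12 rose and none fell (median 1.19), with GAS5 at 62.6 and 75.3 CPM against 135 and 180.3 CPM (log2 fold change 1.19) and SNHG17 at 1.77. Of 129 LINC noncoding RNAs tested 26 rose and 2 fell (median 0.59), LINC01234 by 1.14. Of 224 antisense transcripts 32 rose and none fell (median 0.69), with SLCO4A1-AS1 at 1.85, and that share of 14.3% is close to the 14.1% of all genes. The strand setting of the counting is not given in the sources used here, so reads of an antisense gene and its partner cannot be told apart. Of 45 RAB small GTPases, which direct vesicle traffic, 8 (17.8%) rose and none fell (median 0.54). Without shDAP5 replicate 2 the higher calls were 0, 0, 0, 4, 2 and 1 in the order given, and without shDAP5 replicate 1 they were 12, 4, 9, 12, 14 and 1. Without shNSi replicate 1 they were 10, 5, 4, 14, 23 and 4, and without shNSi replicate 2 they were 11, 4, 10, 11, 13 and 1. The summed level of the nuclear transcripts MALAT1 and NEAT1, without TMM, was 20.8 and 54.0 CPM in the shNSi libraries and 26.4 and 14.7 CPM in the shDAP5 libraries, and its part in these results was not tested.

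Several complexes split, with small subunits higher and large subunits lower. Short and long genes split alike over all 12382 genes with a coding length (Spearman's rho −0.65). Of 38 translation initiation factors 5 (13.2%) rose and 6 (15.8%) fell (median −0.07), close to the 14.1% and 16.7% of all genes tested. EIF4G1, the eIF4F scaffold related to DAP5, was at 1149 and 2244 CPM in shNSi and at 482 and 461 CPM in shDAP5 cells (log2 fold change −1.85, adjusted p = 8.08e-05), and EIF5B, the subunit-joining GTPase, changed by −2.13. EIF1, a small start codon selection factor, rose from 371 and 429 CPM to 834 and 1122 CPM (log2 fold change 1.29), and the groups overlapped for the helicase EIF4A2 (642 and 699 against 686 and 648 CPM). The initiation factors that fell had coding lengths between 1647 and 4800 nt, and those that rose between 342 and 963 nt. Of 11 elongation and release factors 3 fell, EEF2 among them, and 1, EIF5A, rose (median −0.37). Of 26 RNA polymerase subunits 9 rose and 6 fell (median 0.26), with POLR2L of 204 nt at 1.82 and POLR1A of 5163 nt at −1.72. Of 32 genes of the translocon, signal peptidase and oligosaccharyltransferase, through which secreted proteins enter the ER, 8 rose and 9 fell (median −0.13). The catalytic STT3A was lowest, at 311 and 662 CPM against 79 and 94.8 CPM (log2 fold change −2.48), with the channel subunit SEC61A1 at −1.66 and the small DAD1 at 1.39. Of 37 proteasome subunits 6 (16.2%) rose and 3 (8.11%) fell (median 0.32), with PSMB6 at 1.31 and PSMD1 at −1.58. Of 21 V-ATPase subunits 2 (9.52%) rose and 6 (28.6%) fell (median 0.00), with ATP6V0A4 at −2.34. Spearman's rho between coding length and log2 fold change, across members and as a description, was −0.87 for initiation factors, −0.92 for the translocon group, −0.90 for RNA polymerase subunits, −0.83 for proteasome subunits and −0.64 for complex I. Among integrin subunits it was −0.14, among collagen chains −0.28 and among laminin chains 0.84. Without shNSi replicate 2 the change of EIF5B was −1.38, and EIF5A had 0.66 (adjusted p = 0.357) without shDAP5 replicate 2. Without shDAP5 replicate 2, 0 genes rose in these 6 classes and 4 fell in all. In the order given, without shDAP5 replicate 1 the higher calls were 1, 1, 8, 6, 3 and 1 and the lower calls 5, 1, 6, 3, 1 and 5. Without shNSi replicate 1 the higher calls were 3, 0, 4, 5, 3 and 0 and the lower calls 9, 2, 6, 10, 2 and 7. Without shNSi replicate 2 the higher calls were 1, 0, 5, 4, 2 and 1 and the lower calls 4, 0, 5, 5, 1 and 5.

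**Figure D3:**
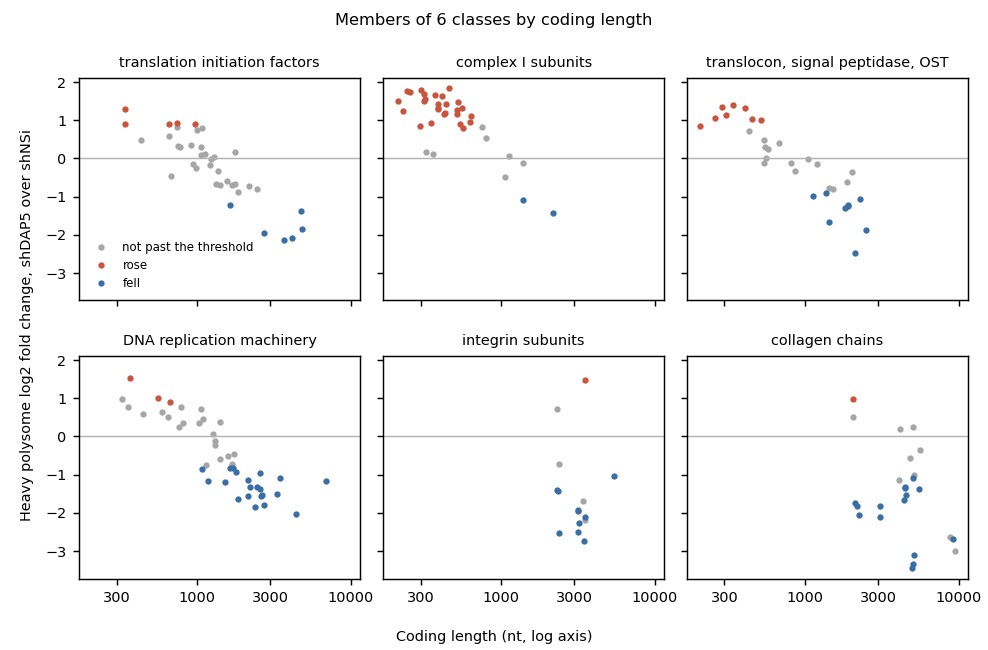
Heavy polysome log2 fold change, shDAP5 over shNSi, against coding length in nt on a log axis for members of 6 classes, 1 point per gene (red rose, blue fell, grey did not pass the adjusted threshold). Initiation factors, complex I, the translocon group and replication genes run from short genes above 0 to long genes below it, while most integrin subunits and collagen chains lie below 0 at lengths above 2000 nt.

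Signaling, metabolic and other classes had calls in both directions, beside 14.1% of all genes tested higher and 16.7% lower. Of 29 receptor tyrosine kinases 12 fell and 1 rose (median −0.56), with EGFR at 204 and 279.6 CPM in shNSi and at 75.3 and 59.7 CPM in shDAP5 cells (log2 fold change −1.84) and EPHA2 at −1.05. Without shNSi replicate 2 EPHA2 was at −0.26 (adjusted p = 0.686), without shNSi replicate 1 at −1.66, and it was called in neither fit that left out an shDAP5 library. AXL had a log2 fold change of −0.89 (adjusted p = 0.0575). Of 37 genes of the BCL2 family, caspases and inhibitors of apoptosis 9 rose and 3 fell (median 0.16), with the proapoptotic BAD at 1.55 and the large inhibitor BIRC6 at −0.99, which was −1.81 without shDAP5 replicate 1 and −0.50 without shDAP5 replicate 2. MCL1 (−0.78, adjusted p = 0.0884) and BCL2L1 (0.86, adjusted p = 0.0551), both antiapoptotic, did not pass. Of 21 genes of the NF-κB pathway and inflammatory cytokines 3 rose and 2 fell (median 0.31). The cytokine IL6 was at 5.97 and 14.6 CPM in shNSi and at 33.4 and 36.8 CPM in shDAP5 cells (log2 fold change 1.77), and the precursors NFKB1 and NFKB2 changed by −1.22 and −1.36. IL6 was at 1.16 without shNSi replicate 1, and NFKB2 at −0.81 (adjusted p = 0.125) without shNSi replicate 2. Of 43 interferon-stimulated genes 9 rose and 14 fell (median −0.35), with the short IFITM3 at 1.47 and the long PARP14 at −1.88. Of 17 glycolytic enzymes 4 fell and 1 rose (median −0.81), with HK1 at −2.01 and TPI1 at 0.99, and GAPDH had 12386 and 11027 CPM against 7274 and 10209 CPM (log2 fold change −0.42, adjusted p = 0.433). Of 24 cholesterol synthesis genes 7 fell and 1 rose (median −0.21). Of 223 solute carriers 50 fell and 17 rose (median −0.25), of 23 ABC transporters 9 fell and 1, ABCA1, rose (median −0.70, with ABCA1 at 2.11 and at 1.28 without shDAP5 replicate 1), of 31 SR and hnRNP splicing factors 4 fell and 1 rose (median 0.02), and of 433 ZNF genes 35 rose and 11 fell (median 0.26). When shDAP5 replicate 2 was left out, at most 6 genes passed in either direction in any of these classes, the 6 being solute carriers that fell. Without shNSi replicate 2, 6 receptor tyrosine kinases, 20 solute carriers and 3 ABC transporters fell, 2 genes of the BCL2 group, 5 interferon-stimulated genes and 11 ZNF genes rose, and NF-κB genes had 7 higher and 0 lower. Without shDAP5 replicate 1, 29 solute carriers and 4 cholesterol synthesis genes fell and 9 solute carriers, 15 ZNF genes and 4 genes of the BCL2 group rose. Without shNSi replicate 1, 4 cholesterol synthesis genes fell and 7 solute carriers, 16 ZNF genes and 3 genes of the BCL2 group rose.

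The change in heavy polysomes followed coding length. Among 12382 genes with a coding length in GENCODE, Spearman's rho between length and log2 fold change was −0.65 in heavy polysomes, −0.12 in total mRNA and 0.14 in light polysomes, given as a description across genes of the same libraries. In the 10% of genes with the shortest coding sequences, up to 552 nt, the median log2 fold change was 0.99, with 58.1% called higher and 0.161% lower. In the 10% with the longest, from 3522 nt, the median was −0.92, with 1.37% higher and 52.8% lower. Genes that fell had a median coding length of 2568 nt, genes that rose 615 nt and the others 1362 nt. Length also separated libraries within an arm. The coefficient was −0.26 for shNSi replicate 1 minus replicate 2, 0.43 for shDAP5 replicate 1 minus replicate 2 and −0.75 for the shNSi moderate pool minus the shNSi heavy pool. The median difference between those 2 shNSi pools ran from 0.79 in the shortest 10% to −1.41 in the longest. Against the total mRNA of the same arm, heavy polysomes had a rho with length of 0.65 in shNSi cells and −0.13 in shDAP5 cells. With the summed control the rho of the shDAP5 change was −0.42, and the part that the bounds of the pools played was not tested further.

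**Figure D4:**
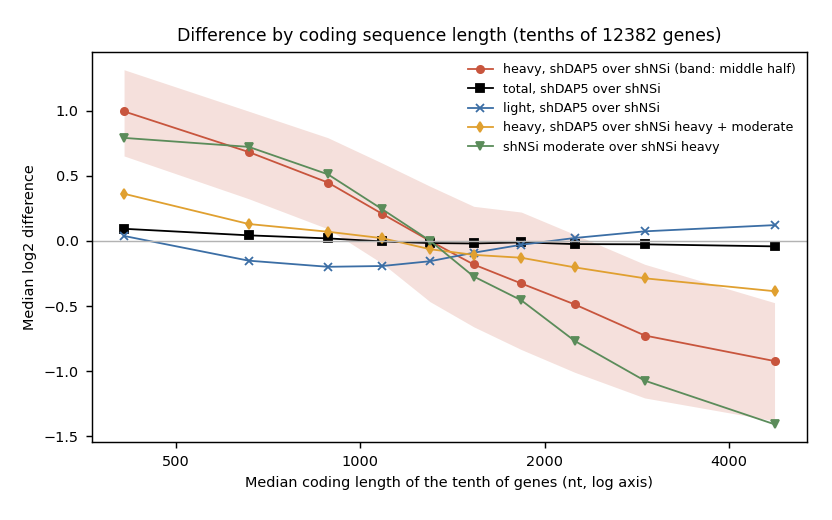
Median log2 difference in each 10% of 12382 genes ordered by coding length (x axis in nt, log scale) for shDAP5 over shNSi in heavy polysomes (circles, with a band from the 25th to the 75th percentile), total mRNA (squares) and light polysomes (crosses), for heavy shDAP5 over the summed shNSi heavy and moderate counts (diamonds) and for the shNSi moderate over the shNSi heavy pool (triangles). The heavy polysome line falls from 0.99 to −0.92, the line between the 2 shNSi pools from 0.79 to −1.41, and total mRNA stays between 0.09 and −0.04.

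Class differences were examined with offsets that remove, in each library, a smooth trend on coding length, an alternative added after the data were seen. With these offsets 1706 of 14350 genes were called, 933 lower and 773 higher, against 2397 lower and 2025 higher without them. Of the lost classes, 10 of 17 ER chaperones fell (median −1.36), as did 8 of 16 heat shock proteins (−0.91), 6 of 15 integrin subunits (−1.13), 5 of 25 collagen chains (−0.55), 6 of 29 metalloproteinases (−0.51), 13 of 49 DDX and DHX helicases (−0.49), 8 of 27 nucleoporins (−0.55) and 12 of 44 replication genes (−0.34). Chromatin modifiers had 1 gene lower and 1 higher (median 0.15), and motors had 3 lower and 5 higher (−0.04). Of the gained classes, 1 of 84 cytosolic ribosomal proteins rose (median 0.41), 1 of 78 mitochondrial ribosomal proteins (0.21), 1 of 36 complex I subunits (0.30) and 0 of 24 Sm and LSm proteins (0.11). Of 433 ZNF genes 43 rose with the offsets (median 0.53). The medians of ubiquitin-specific proteases (0.15), ABC transporters (0.22) and receptor tyrosine kinases (0.03) were above 0 with the offsets, as that of chromatin modifiers was, and those of RAB GTPases (−0.14), RNA polymerase subunits (−0.07), proteasome subunits (−0.06), SR and hnRNP factors (−0.26), V-ATPase subunits (−0.57), the BCL2 group (−0.04) and NF-κB genes (−0.03) below it. None of the snoRNA host genes, 6 of the LINC RNAs and 4 of the antisense transcripts had a coding length. Genes without a coding length had no trend removed, so these offsets cannot show what part length played in them. In this fit 10 of 22 snoRNA host genes were called higher.

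**Figure D5:**
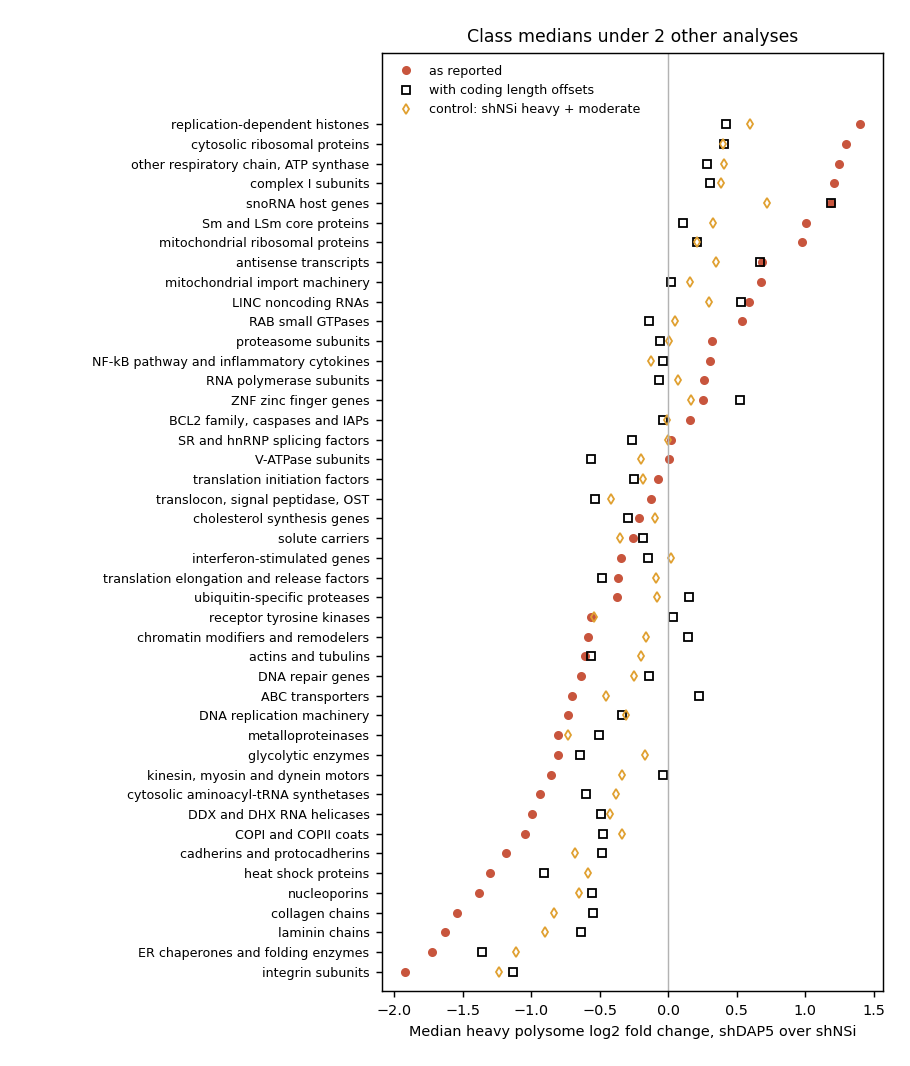
Median heavy polysome log2 fold change of each class as reported (filled circles), with coding length offsets (squares) and with the summed shNSi heavy and moderate counts as the control (diamonds). Integrin subunits stay at −1.13 and −1.23 and ER chaperones at −1.36 and −1.11 under these alternatives, while cytosolic ribosomal proteins come to 0.41 and 0.40. The offsets removed no trend from genes without a coding length, which include all snoRNA host genes and most LINC and antisense transcripts.

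The heavy polysome change was set against total mRNA and light polysomes of the same cultures. In total mRNA 53 of 15084 genes passed (0.351%), and in light polysomes 0 of 15620 (0%), with 1332 at an unadjusted p under 0.05 in edgeR and 108 past the adjusted threshold in DESeq2. Genes that fell in heavy polysomes had a median log2 fold change of −1.26 there and −0.25 in total mRNA, and genes that rose had medians of 1.21 and 0.23. The test of the difference itself, an interaction of fraction and hairpin with a term for each culture, called 2050 of 14189 genes (14.4%) for heavy against total, 1223 lower (8.62%) and 827 higher (5.83%). For heavy against light polysomes it called 1355 of 14102 genes (9.61%), 1022 lower (7.25%) and 333 higher (2.36%). The light libraries carry different pool codes in the 2 arms and may not hold like fractions, which was not tested. In heavy against total, 51 of 84 cytosolic ribosomal proteins, 23 of 36 complex I subunits and 35 of 78 mitochondrial ribosomal proteins were higher, and 23 of 49 DDX and DHX helicases, 14 of 27 nucleoporins, 12 of 24 collagen chains and 8 of 15 integrin subunits were lower, with 1 integrin subunit higher. MMP1 differed by −1.20 between heavy and total, with a log2 fold change of −3.61 in total mRNA (adjusted p = 0.0593), whereas NAA38 differed by 1.75, with 0.17 in total mRNA. The interaction without shDAP5 replicate 2 called 0 genes against total and 2 against light, and without shNSi replicate 2 it called 4 and 799. Without shDAP5 replicate 1 it called 4519 and 669, and without shNSi replicate 1 it called 538 and 3096. Without TMM it called 0 genes against total. In light polysomes alone 4576 genes were called without shNSi replicate 1 and 520 without shNSi replicate 2, and in total mRNA 0 without shDAP5 replicate 1 and 330 without shNSi replicate 1.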

How the data were processed

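RNA of 14 MB-231-shDAP5 and MB-231-shNSi libraries was sequenced, and the heavy, light and total libraries of 2 cultures per group were used. The authors deposited raw counts per gene symbol, and their processing notes name STAR 2.6.0a, hg19 and limma. The counting tool and strand setting are not given in the sources used here. Totals ran from 25899838 to 30795910 counts per library. Heavy libraries were compared in edgeR 4.0.16 by its robust quasi-likelihood test (R 4.3.3, TMM) on genes with at least 10 counts in at least 2 of 4 libraries, with Benjamini-Hochberg adjustment at 0.05. Total and light libraries were tested alike, and differences between fractions by an interaction over 8 libraries with a term per culture. On simulated data for the heavy comparison over 14350 genes, 20 of 100 genes changed by 1 and 92 of 100 changed by 2 on the log2 scale were recovered, with 5 false calls. The simulated counts were drawn from the fitted dispersion, without the trends on coding length seen between replicate libraries. The 5 false calls are therefore not an error rate for the calls in the data. Gene types and lengths came from GENCODE 29, matching 37619 symbols directly and 607 by synonym, and start sequences from RefSeq (GRCh38.p14).

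The class lists, members and tests were chosen with earlier results of these data known. Genes named are EIF4G2, the 10 lowest and 10 highest log2 fold changes among genes that passed with a mean of at least 20 CPM and groups that do not overlap, and per class members with the lowest and highest change and the 3 most abundant. Alternatives were DESeq2 1.42.0, limma 3.58.1 on quantile-normalized values (pseudocount 1 CPM), no TMM, other filters, a fit of all 14 libraries, the shNSi heavy and moderate counts summed, a replicate block, transcript length offsets and each library left out. The coding length offsets and a crossed block for total mRNA were chosen after seeing the data. Some genes that this rule gives are not reported here. RPS6 and RPS12 lie outside the naming rule.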

Additional observations from a re-analysis of the deposited data

Results flagged for a closer look

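The change from shNSi to shDAP5 cells differed between fractions by the interaction test for 2050 genes between heavy polysomes and total mRNA and for 1355 genes between heavy and light polysomes. Of the 20 genes with the lowest and highest heavy polysome changes, 17 passed this test against total mRNA and 12 against light polysomes. Over all genes tested the shares were 14.4% and 9.61%. Without TMM the test called 0 genes against total mRNA and 1720 against light polysomes. A replicate block in place of the term for each culture gave 0 and 1234. The differences, heavy minus total and then heavy minus light on the log2 scale, were −1.20 and −1.47 for MMP1, −2.03 and −2.51 for COL4A1, and −1.76 and −2.25 for COL4A2. They were −1.10 and −1.47 for ECM1, −1.97 and −2.25 for ERAP1, and −1.72 and −1.86 for TM9SF2. Against total mRNA alone, IGF2R (−1.71) and FN1 (−1.57) also passed. Among the genes that rose, the same 2 differences were 1.17 and 1.42 for MARCKSL1, 1.63 and 1.91 for LGALS1, 1.61 and 1.95 for COX7B, 1.26 and 1.5 for ZNF580, 1.45 and 1.82 for PHLDA2, and 1.75 and 1.88 for NAA38. S100A2 (1.38), S100A6 (1.25) and S100A4 (1.21) passed against total mRNA. For all 20 the heavy polysome change chose the gene, so these differences describe the genes and are not independent of that choice.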

How the results depend on the processing

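In heavy polysomes 1706 genes were called with coding length offsets (933 lower, 773 higher), 431 with the summed shNSi control (336 lower, 95 higher), and 2701 with transcript length offsets (1067 higher). No TMM gave 1144 lower and 31.5% of calls lower, and no filter gave 1336 higher. Leaving out 1 library gave 328 to 3666 calls, 218 to 2483 lower and 110 to 1232 higher. Total mRNA had 274 calls with DESeq2, 18 without TMM, 392 with the replicate block and 0 to 330 with 1 library left out. Light polysomes had 108 with DESeq2, 131 with the block and 2 to 4576 with 1 library left out. Heavy minus total had 0 calls without TMM, 0 with a replicate block in place of the term for each culture and 0 to 4519 with 1 library left out, and heavy minus light 2 to 3096. The heavy EIF4G2 change passed with DESeq2 (−0.93) and over all 14 libraries (−0.99). It passed in no other alternative that kept all 4 heavy libraries. There it ran from −1.28 with the summed shNSi control to −0.21 with coding length offsets, with −0.61 without TMM and −0.63 with limma. In total mRNA it did not pass without TMM (−1.07) or without shDAP5 replicate 1, and ranged from −1.36 to −0.90. In light polysomes it passed with DESeq2 (−1.34) and without either shNSi library, from −1.47 to −1.21. The causes were not tested.

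Correlations of same-numbered deviations, 1 value across genes per fraction, were 0.0538 in heavy, −0.101 in total and 0.0463 in light libraries. With 2 cultures per arm these values cannot establish whether the numbers pair the cultures. The replicate block gave 4689 calls in heavy polysomes. In total mRNA it gave 392, against 75 with crossed numbers and 53 without a block. Of 720 comparisons of class medians with an alternative, 46 changed sign, over 16 sets of genes, and in 30 of these the reported median lay within the spread between replicates: V-ATPase subunits (12, down to −0.57), SR and hnRNP factors (9, down to −0.26), cholesterol synthesis genes (3, up to 0.26), initiation factors (2, up to 0.21), the translocon group (2, up to 0.0959), ubiquitin-specific proteases (0.15) and interferon-stimulated genes (0.0176). In the other 16 the sign changed over all genes (−0.0400 over 14 libraries, −0.0167 with the summed control). With coding length offsets it changed for proteasome (−0.0615) and RNA polymerase (−0.0693) subunits, chromatin (0.15), ABC transporters (0.22), RAB (−0.14), receptor tyrosine kinases (0.0326), BCL2 (−0.0404) and NF-κB genes (−0.0348). The proteasome also had −0.20 with transcript length offsets, with and without the block. The BCL2 group had −0.00503 with the summed control, and NF-κB genes −0.13 there, −0.0355 with transcript length offsets, and −0.19 to 0.67 with 1 library left out. Of 1840 comparisons of genes given by the naming rule or the text, 4 changed sign: BIRC6 with coding length offsets (0.0865), GAPDH with limma (0.15) and SDF2L1 with transcript length offsets (−0.0645, and −0.0421 with the block). In 335 a call was lost and in 14 gained. The self-test changed 100 genes by 1 and 100 by 2 on the log2 scale among 14350, and recovered 20% of the former. In the data 4422 genes passed, so the adjusted threshold was less strict there and that share does not carry over. A gene not called may still have changed.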
